A study of Ovis aries with 40 samples.

Results

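The airway secretory cell genes described here are SCGB1A1, BPIFA1, BPIFB1, TFF2, WFDC2, SPDEF and AGR2. These 7 genes were chosen by name, as genes of the club and goblet cells of the airway lining, out of the 24478 genes counted in sheep lung. Their transcripts were followed by RNA-seq of bulk tissue in 40 libraries. The libraries cover wild-type (WT) and CFTR-/- (CF) sheep, proximal and distal lung, and 5 time points, which are gestational days 65, 80, 100, 120 and 147 (term), with 2 libraries for each of the 20 conditions. All animals were American Romney sheep. WT animals came from standard breeding and the WT term animals were born naturally, while CF animals were cloned by somatic cell nuclear transfer from a single male fetal fibroblast line with CFTR targeted in exon 2. Cloning and loss of CFTR therefore cannot be told apart in any comparison of CF with WT. The paper also lists the time between birth and tissue collection as a factor in the term transcriptome. Birth and gestational age cannot be told apart where WT term is compared with earlier days. The part of birth in the differences of CF and WT at term was not tested. Proximal and distal libraries that carry the same genotype, day and replicate number come from the same animal. Both WT day 100 replicates carry the same animal label, and so do WT day 65 replicate 2 and CF day 100 replicate 2, so those libraries may not be independent animals and were placed by their titles.

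The airway epithelium is lined by ciliated cells and by secretory cells, which release a thin protective layer of protein and mucus. Club cells secrete the uteroglobin family protein SCGB1A1. Goblet cells and submucosal glands release mucins, which must be folded in the endoplasmic reticulum before they are packed into granules. SPDEF is the ETS-family transcription factor that drives goblet cell differentiation, and AGR2 is the protein disulphide isomerase that mucin folding depends on. BPIFA1 (SPLUNC1) and BPIFB1 (LPLUNC1) are secreted proteins of the upper airway with a lipid-binding fold and a role in host defence. TFF2 is a trefoil peptide, best known from gastric mucus and from epithelial repair. WFDC2 is a secreted protein with whey acidic protein domains that is counted among innate defence proteins.

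In the genome build to which the reads were aligned (Oar_v4.0), SCGB1A1 lies on chromosome 21 at 40088778 to 40092079 on the plus strand, with 3 exons. BPIFA1 (chromosome 13, 62055250 to 62061845, plus strand) and BPIFB1 (chromosome 13, 62072314 to 62112501, plus strand) are neighbours, 10469 bases apart. WFDC2 is on the same chromosome at 73766133 to 73772910 (plus strand). TFF2 lies on chromosome 1 at 260517767 to 260521339 (minus strand), SPDEF on chromosome 20 at 8654165 to 8672946 (minus strand) and AGR2 on chromosome 4 at 25352329 to 25365680 (minus strand). No other annotated gene overlapped the span of any of the 7 genes, so none of them shares its position with an antisense or nested transcript in this annotation. WFDC2 was also assayed by the study with RT-qPCR, and the primer pair of that assay is shown because it fixes which stretch of transcript was amplified (5′ to 3′).
WFDC2 forward: ccgtctgccagatgcctaat
WFDC2 reverse: tcagaacactggctgtccac

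Levels are given as CPM, the read count of a gene scaled to a common library total after TMM normalisation, which corrects for differences in library composition. Library totals ranged from 24670355 to 43700012 in WT before term, from 85773994 to 103139483 in CF before term, and from 115937437 to 126749480 at term. Before term depth and genotype thus cannot be told apart, and within WT lung neither can depth and term. A count of 0 therefore bounds a gene less tightly in WT than in CF before term. CFTR itself was lower in both CF libraries than in both WT libraries in all 10 pairs of region and day, with 3.65 to 5.14 CPM in CF and 9.58 to 14.8 CPM in WT at term; gene-level counts do not show whether exon 2 was read. All 10 epithelial genes and at least 11 of 12 ciliated genes had reads in every library, which shows epithelial transcripts in each. These genes do not tell lung from other epithelium, or proximal from distal lung. CF proximal day 120 replicate 2 differed widely from replicate 1. Its basal cell marker sum was 293 CPM against 8.88 CPM in replicate 1, its ciliated sum 683 against 188 CPM, its cartilage sum 106 against 17.8 CPM, and its sum of 8 gastrointestinal and oesophageal genes 22.4 against 0.826 CPM. The part of these differences in the results below was not tested, and the main values that rest on that library are given with and without it. Other pairs were split on the same markers, with basal sums of 9.89 and 310 CPM and gastrointestinal sums of 2.03 and 17.4 CPM in CF distal lung at term, and 24.6 and 154 CPM and 1.10 and 11.7 CPM in CF proximal lung at day 80. In bulk tissue, fewer cells of a type and less RNA per cell cannot be told apart.

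The 7 genes did not share a course. SCGB1A1, TFF2, BPIFB1 and WFDC2 were higher at term than at day 65 in all 4 courses (WT proximal, WT distal, CF proximal, CF distal) without overlap of the libraries, and BPIFA1 in 3 of them. Of all 20779 genes kept, 29.9% to 37.3% were higher at term without overlap in a given course and 15.6% in all 4. SPDEF and AGR2 were not higher in this way in any course. TFF2, WFDC2, SPDEF and AGR2 were read in all 40 libraries, SCGB1A1 was at 0 in 6, BPIFB1 in 5 and BPIFA1 in 24. All 7 genes passed the filter on low counts over the 40 libraries; within the CF time courses alone BPIFA1 did not pass and was not tested.

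**Figure D1:**
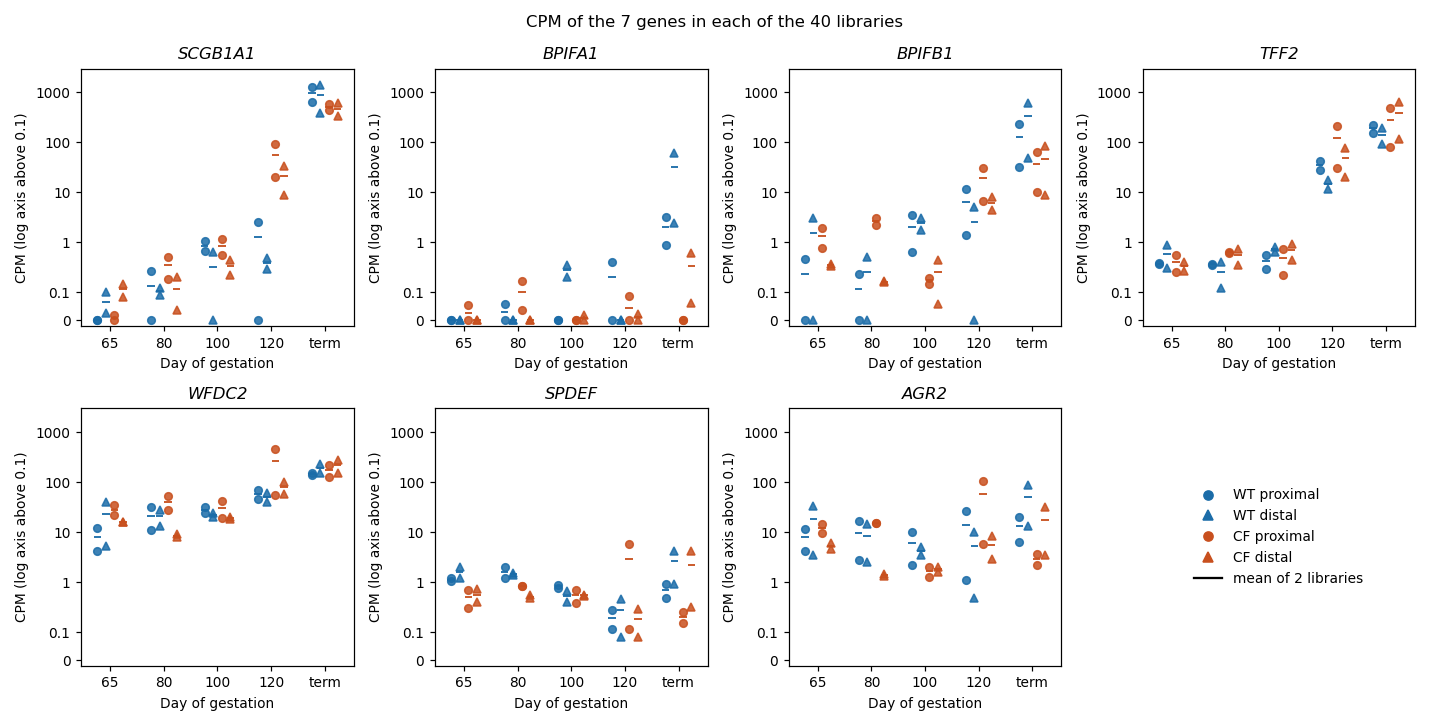
CPM (log axis above 0.1) of each gene against day of gestation, with 1 point for each of the 40 libraries (blue WT, orange CF, circles proximal, triangles distal) and a short line at the mean of the 2 libraries. SCGB1A1 and TFF2 lie near or below 1 CPM up to day 100 and above 80 CPM in every term library, while SPDEF and AGR2 show no common rise and spread widely between the 2 libraries of a condition.

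SCGB1A1, the main secretory protein of club cells, had the largest range, from 0 to 1415 CPM. In WT proximal lung it was at 0 in both day 65 libraries, at 0 and 0.269 CPM at day 80, at 0.681 and 1.05 CPM at day 100, at 2.53 and 0 CPM at day 120, and at 642 and 1283 CPM at term. The WT distal level stayed between 0 and 0.645 CPM up to day 120 and reached 396 and 1415 CPM at term. The WT transcript was thus at or below 2.53 CPM (86 reads) until day 120 and far above that in every term library of both regions.
CF proximal lung had it at 0.0184 and 0 CPM at day 65, 0.515 and 0.186 CPM at day 80, 0.572 and 1.17 CPM at day 100, 20.4 and 93.3 CPM at day 120, and 593 and 443 CPM at term. CF distal lung at the last 3 time points gave 0.449 and 0.219, then 8.73 and 33.6, then 605 and 340 CPM. All 4 CF libraries of day 120 were above all 4 WT libraries of that day, and at term the genotypes overlapped in distal lung, while both CF proximal libraries were below both WT ones.

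TFF2 showed the sharpest step of the 7 genes before term. It lay between 0.121 and 0.937 CPM in the 24 libraries of days 65 to 100. At day 120 it reached 43.4 and 28.6 CPM in WT proximal, 18.0 and 11.7 CPM in WT distal, 30.3 and 218 CPM in CF proximal, and 20.1 and 78.6 CPM in CF distal lung. At term the values were 154 and 228, 94.98 and 192, 489 and 82.6, and 650 and 119 CPM in the same order. Every day 120 library was above every earlier library, and the CF term libraries split into a high replicate 1 and a low replicate 2 in both regions. In CF distal lung at term the summed level of alveolar type 2 markers was 35414 CPM in replicate 1 and 8723 CPM in replicate 2, and the ciliated sum 383 and 794 CPM. TFF2 was higher in the same library as the alveolar type 2 sum in 14 of 20 conditions, as the ciliated sum in 7 of 20 and as the sum of macrophage and leukocyte markers in 17 of 20. The part of these cells in the TFF2 level was not tested.

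WFDC2 had the smallest median difference between replicates of the 7 genes, 1.67 times, and was read in every library, at 4.29 to 468 CPM with a median of 33.6 CPM. In WT proximal lung the pairs of libraries gave 12.1 and 4.29, 11.2 and 31.7, 32.0 and 24.6, 70.1 and 46.5, and 143 and 157 CPM from day 65 to term. In CF distal lung they gave 15.9 and 16.1, 8.12 and 9.15, 18.4 and 20.2, 58.3 and 102, and 282 and 157 CPM, and there no neighbouring time points overlapped when ordered by their means. WT distal lung ran from 40.7 and 5.43 CPM at day 65 to 154 and 227 CPM at term. The highest CF proximal library was day 120 replicate 2, at 468 CPM, while replicate 1 had 55.9 CPM and the term libraries 220 and 127 CPM.

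The BPIF genes differed in level although they are adjacent. BPIFB1 in WT proximal lung was at 0.474 and 0 CPM at day 65, 11.8 and 1.38 CPM at day 120, and 32.3 and 230 CPM at term. BPIFB1 reached 48.6 and 619 CPM at term in WT distal lung, in CF proximal lung 10.3 and 64.6 CPM and in CF distal lung 8.87 and 84.9 CPM. Within each of these term pairs replicate 2 was the higher library, by up to 12.7 times in WT distal lung.
BPIFA1 stayed at or below 0.411 CPM in all 32 libraries before term. At term it had 0.871 and 3.26 CPM in WT proximal lung and 2.46 and 62.4 CPM in WT distal lung, where replicate 2 held 7109 reads. In CF lung at term both proximal libraries had no read, and the distal libraries had 0.0633 and 0.624 CPM, or 6 and 56 reads.

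SPDEF, the goblet cell transcription factor, was the scarcest gene with reads in every library, at a median of 0.699 CPM over the 40 libraries. In WT proximal lung it was at 1.21 and 1.04 CPM at day 65, 1.21 and 2.04 at day 80, 0.766 and 0.902 at day 100, 0.117 and 0.276 at day 120, and 0.488 and 0.937 CPM at term. The lowest mean of the course was at day 120 in WT proximal, WT distal and CF distal lung. In CF proximal lung day 120 held both extremes of its course, with 0.118 CPM in replicate 1 and 5.85 CPM in replicate 2, a ratio of 49.6 that was the largest among the replicate pairs of the 7 genes in which both libraries had reads. At term the distal pairs were also split, at 0.912 and 4.33 CPM in WT and 0.316 and 4.24 CPM in CF.
AGR2, the mucin-folding isomerase, was read at 0.496 to 109 CPM, with a median of 5.46 CPM. Replicates differed by a median of 3.05 times over the 20 conditions, more than for SPDEF (1.77) or WFDC2 (1.67). At day 120 the pairs were 26.4 and 1.11 CPM in WT proximal, 0.496 and 10.02 in WT distal, 5.93 and 109 in CF proximal, and 8.36 and 2.94 CPM in CF distal lung. In WT lung, time points next to each other when ranked by their means overlapped throughout in both regions. In order of age, the WT distal term libraries (13.2 and 86.8 CPM) were above those of day 120.

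On a per-length scale (mean CPM per kilobase of exon), the order of the genes at term was SCGB1A1 first in all 4 groups and SPDEF last in WT lung. In WT proximal lung SCGB1A1 had 3488, TFF2 291, WFDC2 276, BPIFB1 69.0, AGR2 12.2, BPIFA1 1.98 and SPDEF 0.385 CPM per kilobase. In CF proximal lung the order was SCGB1A1 at 1878, TFF2 at 436, WFDC2 at 319, BPIFB1 at 19.7, AGR2 at 2.69 and SPDEF at 0.110, with BPIFA1 at 0. TFF2 and WFDC2, neighbours in that order, overlapped between libraries in all 4 groups.

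To ask when in gestation each gene changed, consecutive time points were compared within each course by quasi-likelihood tests in edgeR. The p-values were adjusted by Benjamini and Hochberg's method across every gene tested, and a gene was called at an adjusted p of 0.05 or less. Of the 16 consecutive comparisons, the 8 that end at day 80 or day 100 called none of the 7 genes in edgeR. The share of all tested genes called there was 0.011% and 1.94% in WT proximal lung, 0.0164% and 1% in WT distal lung, and 0% in both regions of CF lung. An unadjusted p under 0.05 was reached by WFDC2 in 3 of the 8, and by SCGB1A1, BPIFB1 and AGR2 in 1 each. DESeq2 called SCGB1A1 (day 80 against day 65) and BPIFB1 (day 100 against day 80) in CF proximal lung.
Between days 100 and 120, 1 of the 7 genes was called in WT proximal lung (background 2.67% of genes) and in WT distal lung (2.49%). It was TFF2 both times, higher by 6.34 on the log2 scale in proximal lung (SE 0.36, edgeR adjusted p = 0.000183) and by 4.35 in distal lung (SE 0.55, adjusted p = 0.00793). In CF distal lung 3 of 6 tested genes were called (background 0.928%), which were SCGB1A1 (log2 change 5.97, SE 0.79, adjusted p = 0.0166), TFF2 (6.16, SE 0.99, adjusted p = 0.0311) and WFDC2 (2.07, SE 0.32, adjusted p = 0.0275). The TFF2 call in WT distal lung was lost with the WT day 100 libraries summed to 1 sample (adjusted p = 0.119), and the WFDC2 call in CF distal lung in a single fit over the 40 libraries (adjusted p = 0.227). All 3 CF distal calls were lost without day 100 replicate 1 (adjusted p = 0.159 for SCGB1A1, 0.296 for TFF2 and 0.28 for WFDC2) and without day 100 replicate 2 (0.243, 0.279 and 0.285), with log2 changes close to those above. TFF2 and WFDC2 were also lost without either day 80 library or without day 120 replicate 2, and were kept in 5 of 10 refits each. The WT distal TFF2 call was kept in 7 of 10, with an adjusted p of 0.126 and 0.14 without day 100 replicates 1 and 2 and 0.0553 without day 120 replicate 1.
None of the 6 tested genes was called by edgeR between days 100 and 120 in CF proximal lung, where 0.0203% of all genes were. The fitted changes there were 6.06 for SCGB1A1 (SE 0.92, edgeR adjusted p = 0.145), 8.05 for TFF2 (SE 1.38, adjusted p = 0.183) and 5.13 for AGR2 (SE 1.17, adjusted p = 0.296), so none passed. DESeq2 called 5 of the 6 in this interval, all but SPDEF, and the share of all genes that DESeq2 called is not given here. In edgeR 5 had an unadjusted p under 0.05, as did 1514 of the 19690 genes tested. Without CF proximal day 120 replicate 1, the log2 changes in that interval were 6.05 for AGR2 and 3.43 for SPDEF. Both were then read from replicate 2 alone, whose spread is taken from the other conditions. Without replicate 2, the log2 values were 4.58 for SCGB1A1, 6.01 for TFF2, 1.86 for AGR2 and -2.19 for SPDEF, which was 2.46 with both replicates.

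Between day 120 and term the WT proximal comparison called 3 of 7, against 24.6% of all genes, with rises in SCGB1A1 by 9.59 (SE 1.06, edgeR adjusted p = 0.000821), TFF2 by 2.41 (SE 0.25, adjusted p = 0.000424) and BPIFB1 by 4.31 (SE 1.23, adjusted p = 0.0314). For WT distal lung 5 of 7 were called, all higher, against 25.8% of all genes: SCGB1A1 by 11.21 (SE 0.97, adjusted p = 0.000361), TFF2 by 3.26 (SE 0.46, adjusted p = 0.00232), BPIFB1 by 6.88 (SE 1.77, adjusted p = 0.022), SPDEF by 3.13 (SE 0.91, adjusted p = 0.035) and BPIFA1. BPIFA1 was at 0 in both WT distal day 120 libraries, so its change is a bound: the term mean was at least 326-fold higher than the level of 3 reads per library (edgeR adjusted p = 0.0184). That mean rests mostly on term replicate 2, at 62.4 CPM against 2.46 CPM in replicate 1.
CF distal lung gave 4 calls of 6, all higher, against 23% of all genes: SCGB1A1 by 4.50 (SE 0.70, edgeR adjusted p = 0.00563), TFF2 by 2.98 (SE 0.83, adjusted p = 0.0335), WFDC2 by 1.45 (SE 0.31, adjusted p = 0.0148) and SPDEF by 3.55 (SE 1.11, adjusted p = 0.0471). None of 6 was called by edgeR in CF proximal lung, against 0.356% of all genes. There SCGB1A1, SPDEF and AGR2 had an unadjusted p under 0.05 in edgeR, as did 2967 of the 19690 genes tested, and were called by DESeq2. The edgeR log2 value of SCGB1A1 there was 3.15 (SE 0.80, adjusted p = 0.138), and without CF proximal day 120 replicate 2 by 4.63 (adjusted p = 0.0341).
The calls differ in how far they rest on single libraries. Those of SCGB1A1 (WT proximal, WT distal, CF distal) and of TFF2 in WT lung held without each library in turn, although TFF2 in WT proximal lung had an adjusted p of 0.0694 in the single fit over 40 libraries. SPDEF was called in 4 of 10 such refits in WT distal lung, with an adjusted p of 0.247 without term replicate 2, and in 1 of 10 in CF distal lung, with 0.574 without term replicate 2. In CF distal lung TFF2 was called in 5 of 10, with 0.218 without term replicate 1 and 0.162 without day 120 replicate 1, and WFDC2 in 9 of 10, with 0.0854 without day 120 replicate 1. BPIFA1 in WT distal lung was called in 8 of 10, with 0.0794 and 0.0766 without day 120 replicates 1 and 2. BPIFB1 without term replicate 2 had an adjusted p of 0.325 in WT proximal and 0.195 in WT distal lung, and was also lost without day 120 replicate 2 in proximal (0.146) and without day 120 replicate 1 in distal lung (0.113). DESeq2 did not call BPIFB1 in WT proximal (adjusted p = 0.13) or WT distal lung (adjusted p = 0.0948).

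**Figure D2:**
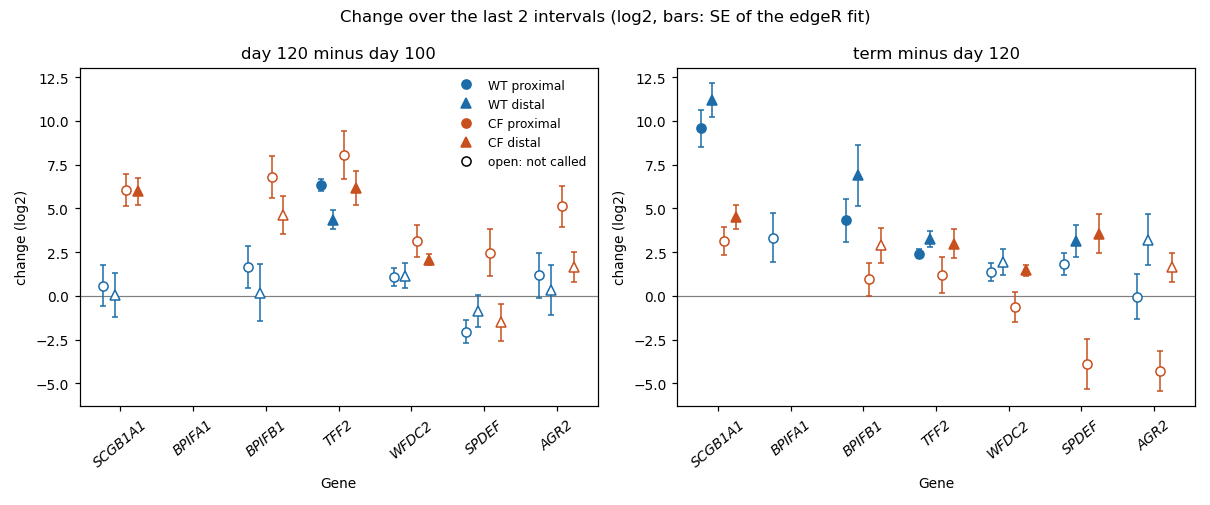
Log2 change from day 100 to day 120 (left) and from day 120 to term (right) of each gene in the 4 courses, with bars for the SE of the edgeR fit; filled symbols are called at an adjusted p of 0.05 or less, open symbols are not, and changes against a group at 0 are left out. SCGB1A1 is filled in the right panel only in WT lung and in both panels in CF distal lung, and TFF2 is filled in both panels in every course but CF proximal.

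Over the whole course, term was compared with day 65. In WT proximal lung 5 of 7 genes were called (background 45.1%), all higher: SCGB1A1, BPIFA1, BPIFB1, TFF2 and WFDC2. WT distal lung gave the same 5 (background 42.8%). For CF proximal lung SCGB1A1, BPIFB1 and TFF2 were called of 6 tested (background 11.6%), and in CF distal lung these and WFDC2 (background 31.1%). The shares of all genes called were themselves high in this comparison.
The calls that leaving out a library ended were BPIFB1 in CF proximal lung (adjusted p = 0.123 to 0.195 without either day 65 library or term replicate 2) and in WT distal lung (0.09 without term replicate 2), TFF2 in CF proximal lung (0.0617 and 0.0804 without day 65 replicates 1 and 2) and BPIFA1 in WT proximal lung (0.0573 to 0.0716 without either day 65 library or term replicate 2, and 0.121 with DESeq2).
TFF2 rose by 8.97 in WT proximal (SE 0.38, edgeR adjusted p = 1.36e-06), 7.89 in WT distal (SE 0.60), 9.44 in CF proximal (SE 1.46) and 10.18 in CF distal lung (SE 1.17). WFDC2 rose by 4.19 (SE 0.56), 3.02 (SE 0.77) and 3.81 (SE 0.34) in WT proximal, WT distal and CF distal lung, and had 2.62 in CF proximal lung (SE 0.90, edgeR adjusted p = 0.096). SCGB1A1 was at 0 in both WT proximal day 65 libraries, and its term mean was at least 11935-fold higher than the level of 3 reads per library. CF proximal lung held 2 SCGB1A1 reads in all at day 65, which gives a ratio of term to day 65 of 56709 with a 95% counting interval from 15698 to 468273. Those 2 reads may be the mates of 1 fragment, so the interval is too narrow and the size of the ratio is uncertain.
SPDEF and AGR2 were not called by edgeR in any of the 4 courses with all libraries. AGR2 had log2 values of 0.74 (SE 1.28) in WT proximal, 1.43 (SE 1.37) in WT distal, -2.03 (SE 1.02) in CF proximal and 1.76 (SE 0.84) in CF distal lung, and SPDEF lay between -1.32 and 2.01. The median change of all genes in these comparisons lay between -0.08 and 0.02. Leaving out CF proximal day 120 replicate 1 or replicate 2 gave the same AGR2 value in CF proximal lung with an adjusted p of 0.00667 or 0.0103, lower at term. AGR2 was called as higher at term in CF distal lung by DESeq2, and by edgeR without CF distal term replicate 1 (adjusted p = 0.0103).

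CF and WT were then compared at the same day and region, to ask where the genotypes differ. Across the 5 days and 2 regions, 3 of the 70 gene and condition pairs were called, all of them late: SCGB1A1 at day 120 in proximal and in distal lung, and BPIFA1 at term in distal lung. WFDC2 was also called in the mean over days 65 to 120 in proximal lung. At days 65, 80 and 100 none of the 7 genes was called by edgeR or DESeq2, where edgeR called 0.167%, 0.0885% and 0.383% of all genes in proximal lung and 5.23%, 5.92% and 5.3% in distal lung. WFDC2 at day 65 and BPIFB1 at days 80 and 100 in proximal lung, and BPIFA1 at day 100 in distal lung, had an unadjusted p under 0.05.
SCGB1A1 at day 120 was at 20.4 and 93.3 CPM in CF against 2.53 and 0 CPM in WT proximal lung, and at 8.73 and 33.6 CPM in CF against 0.496 and 0.300 CPM in WT distal lung. The libraries did not overlap in either region. The difference of CF minus WT was 5.80 on the log2 scale in distal lung (SE 0.96, edgeR adjusted p = 0.00453), where it was 1 call of 7 against 4.38% of all genes. In proximal lung it was 5.50 (SE 1.23, adjusted p = 0.0497), 1 call of 7 against 1.35% of all genes. The proximal call was at the threshold: it was kept in 1 of 20 refits without a library, that without CF proximal day 120 replicate 1 (without CF proximal day 120 replicate 2 it was 4.02, adjusted p = 0.0749), and was lost with the replicate block (adjusted p = 0.081) and with the WT day 100 libraries summed (adjusted p = 0.0694). The distal call held under the other settings tried except the study's own limits (highest adjusted p of 0.00903). It was kept in 18 of 20 refits without a library, and was lost without WT distal day 120 replicate 1 and without replicate 2. Over the 20 refits the difference lay between 4.51 and 6.46.
After thinning all libraries to the depth of the shallowest, the distal difference was still called and the proximal call was kept too. Other markers also differed between the genotypes at day 120. The alveolar type 2 sum was 8662 to 21302 CPM in CF and 5656 to 6969 CPM in WT proximal lung, and 7593 to 9592 in CF against 3634 to 4572 CPM in WT distal lung. The ciliated sum overlapped between the genotypes in both regions (188 to 683 in CF against 241 to 355 CPM in WT proximal lung, 215 to 260 against 179 to 390 CPM in distal lung). Smooth muscle was higher in CF (990 to 1259 against 393 to 557 CPM in proximal, 1255 to 1347 against 464 to 613 CPM in distal lung), and erythroid genes were lower (21.3 to 47.8 against 62.6 to 80.6 CPM, and 25.5 to 35.1 against 68.9 to 95.8 CPM). Cartilage and macrophage sums were higher in CF, also without overlap in either region. The macrophage and leukocyte genes did not move together. In the mean over days 65 to 120 CD68 was called higher in CF (log2 difference 0.95 in distal and 0.93 in proximal lung). MRC1 (-0.85 and -0.96) and PTPRC (-0.73 and -0.79) were called lower in the same means. Single marker and secretory genes were also called in distal lung at day 120. SOX2 (log2 difference -1.67), CLDN10 (-1.31) and EPCAM (-0.95) were lower in CF. Those higher in CF were CD68, NAPSA, HYOU1, ACTA2, ABCA3, MYH11, SFTPD, SFTPA1 and SFTPB. The part of these differences in the SCGB1A1 result was not tested.
At term both CF proximal libraries (593 and 443 CPM) lay below both WT ones (642 and 1283 CPM), with a log2 difference of -0.89 that was not called (SE 1.00, edgeR adjusted p = 0.684). The distal libraries overlapped at term (-0.92, SE 0.68, adjusted p = 0.39). The change of SCGB1A1 from day 120 to term differed between the genotypes in distal lung by -6.72 (CF minus WT, SE 1.18, adjusted p = 0.00447), the only 1 of 56 such gene and interval pairs that was called, in a comparison where 9.31% of all genes were. In the 6 comparisons of earlier changes at most 0.00996% of all genes were called. This call held without each of the 20 distal libraries in turn, with a highest adjusted p of 0.0357, and under each of the other settings except the study's own limits. In proximal lung the corresponding difference was -6.40 (SE 1.56, adjusted p = 0.0597; background 1.78%). It was called in a single fit over 40 libraries (adjusted p = 0.0082), with the bias-adjusted fit (0.0144) and after thinning (0.0415), also without CF proximal day 120 replicate 2 (-4.94, adjusted p = 0.0451), and not with the replicate block (0.106) or DESeq2 (0.0933).

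BPIFA1 at term was lower in CF than in WT distal lung, with a log2 difference of -6.55 (SE 1.56, edgeR adjusted p = 0.022), 1 call of 7 against 15.2% of all genes. It rests on 6 and 56 reads in CF against 272 and 7109 in WT, and all 4 libraries had reads. Without WT distal term replicate 2 the adjusted p was 0.26, without CF distal term replicates 1 and 2 it was 0.0675 and 0.0556, and DESeq2 gave 0.241. No BPIFA1 read was found in either CF proximal library at term against 100 and 390 in WT, so that the CF level was at least 66.5-fold lower with the CF libraries set to 3 reads each. This difference was not called (edgeR adjusted p = 0.0678; background 6.09%), and was called when either CF proximal day 120 library was left out (adjusted p = 0.0276 or 0.0271).
BPIFB1, the neighbouring gene, had log2 differences of -2.82 in distal (SE 1.42, edgeR adjusted p = 0.195) and -1.81 in proximal lung (SE 1.28, adjusted p = 0.477) at term, with overlapping libraries in both regions. Both BPIF genes were thus lower in CF at term by their means, with BPIFA1 in distal lung the only called difference.
WFDC2 was higher in CF proximal lung over days 65 to 120 by 1.25 (SE 0.39, edgeR adjusted p = 0.0369), 1 call of 7 against 20.6% of all genes. Among single days it was above in CF without overlap at day 65 alone, with 35.1 and 21.8 CPM in CF and 12.1 and 4.29 CPM in WT, in a comparison where 33.7% of all genes were so. In distal lung it was below in CF without overlap at day 80 (8.12 and 9.15 against 13.4 and 28.4 CPM, 29.7% of all genes) and at day 100 (18.4 and 20.2 against 20.4 and 24.7 CPM, 31.9% of all genes). The call was lost in 10 of 20 refits without a library, including the refit without CF proximal day 120 replicate 2 (adjusted p = 0.0936), and with the WT day 100 libraries summed (0.0747). The distal mean over the same days differed by -0.33 (SE 0.30, adjusted p = 0.433; background 32.3%), with no member called.
TFF2 differed by 1.78 (SE 0.82) in proximal and by 1.74 (SE 0.72) in distal lung at day 120 (CF minus WT) and was not called (edgeR adjusted p = 0.283 and 0.19). Without CF proximal day 120 replicate 2 the proximal value was -0.26 (adjusted p = 0.916). AGR2 and SPDEF were not called by edgeR at any day with all libraries: AGR2 lay between -2.60 and 2.06 (the latter at day 120 in proximal lung, and -1.22 without CF replicate 2) and SPDEF between -1.80 and 3.90. The SPDEF value of 3.90 at day 120 in proximal lung (SE 1.22, adjusted p = 0.12) rests on CF replicate 2, as replicate 1 had 0.118 CPM against 0.117 and 0.276 CPM in WT, and it was -0.74 without replicate 2 (adjusted p = 0.718). It was called by DESeq2 (adjusted p = 0.00946), as was WFDC2 in the same comparison (log2 difference 2.17, adjusted p = 0.049), and SPDEF was called by edgeR without replicate 1 (4.88, adjusted p = 0.000705). The edgeR value of WFDC2 there was 2.17 (SE 0.80, adjusted p = 0.183), and -0.07 without replicate 2. Both CF libraries held less SPDEF than both WT libraries in 6 of the 10 comparisons (proximal lung at days 65, 80, 100 and term, distal lung at days 65 and 80), and in none did both hold more. At day 65 in distal lung these were 0.405 and 0.734 against 2.00 and 1.21 CPM. The 6 differences lay between -0.59 and -1.80 and none was called. Of all genes, 20.9% to 29.7% were below in CF without overlap in each of these 6 comparisons, and 9.37% were so in 6 or more of the 10 comparisons and above in none.

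**Figure D3:**
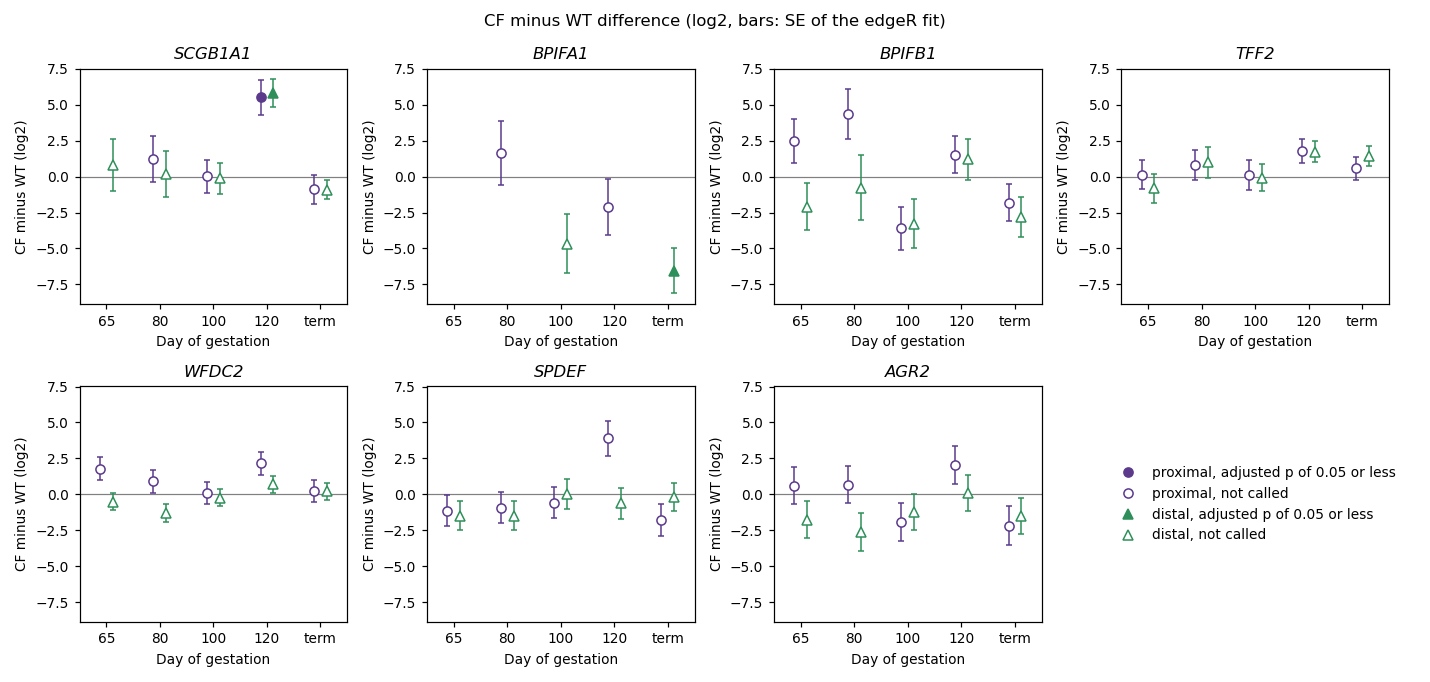
CF minus WT difference (log2) of each gene by day of gestation, purple circles for proximal and green triangles for distal lung, with bars for the SE of the edgeR fit; filled symbols are called at an adjusted p of 0.05 or less, and comparisons in which either group was at 0 are left out. SCGB1A1 stands at 5.50 and 5.80 at day 120 and near -0.9 at term, and the only other filled symbol is BPIFA1 in distal lung at term.

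Proximal and distal lung were compared within each genotype. In the 20 pairs of proximal and distal libraries of the same animal label, the genotypes split differently for some genes, a difference that was not tested. Proximal was higher in 7 of 10 CF and 3 of 10 WT pairs for WFDC2, and in 7 of 10 CF and 2 of 10 WT pairs for BPIFB1, where 2 further WT pairs had no read in either region. For SCGB1A1 the counts were 7 in CF and 5 in WT, for AGR2 6 and 5, for SPDEF 5 and 4, for TFF2 4 and 6, and for BPIFA1 4 and 2, where 3 CF and 4 WT pairs had no read in either region. None of the 7 genes was called in the 10 comparisons at single days or in the 2 means over the 5 time points, where 0 to 0.016% of all genes were called by edgeR (0.0107% at day 120, 0.00534% at term and 0.016% in the mean in WT, and 0.00497% in the mean in CF). In CF at day 80, BPIFB1, WFDC2 and AGR2 had an unadjusted p under 0.05 in edgeR, as did 717 of the 20126 genes tested. DESeq2 called BPIFB1 and AGR2 as higher in proximal lung there.
TFF2 at day 120 in WT was the most regular case, with 43.4 CPM proximal and 18.0 CPM distal in replicate 1, and 28.6 and 11.7 CPM in replicate 2. Its difference was 1.27 (SE 0.38, not called by edgeR), and with the animal as a block it was the only regional difference called (1.27, SE 0.19, adjusted p = 0.0382).
At term the distal library held more BPIFA1, WFDC2, SPDEF and AGR2 in each of the 4 animals, as it did for 8.93% of all 20779 genes, while SCGB1A1, BPIFB1 and TFF2 were mixed. SPDEF in CF was 0.316 distal and 0.155 CPM proximal in replicate 1, and 4.24 and 0.254 CPM in replicate 2. AGR2 in WT replicate 2 was 86.8 CPM distal and 20.5 CPM proximal. The log2 differences were not called, with -3.47 for SPDEF in CF (SE 1.38) and -1.88 in WT (SE 0.73). At day 120 the order of AGR2 was mixed: it was higher in proximal lung in CF replicate 2 (109 against 2.94 CPM) and WT replicate 1 (26.4 against 0.496 CPM), and higher in distal lung in the other pair of animals.

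**Figure D4:**
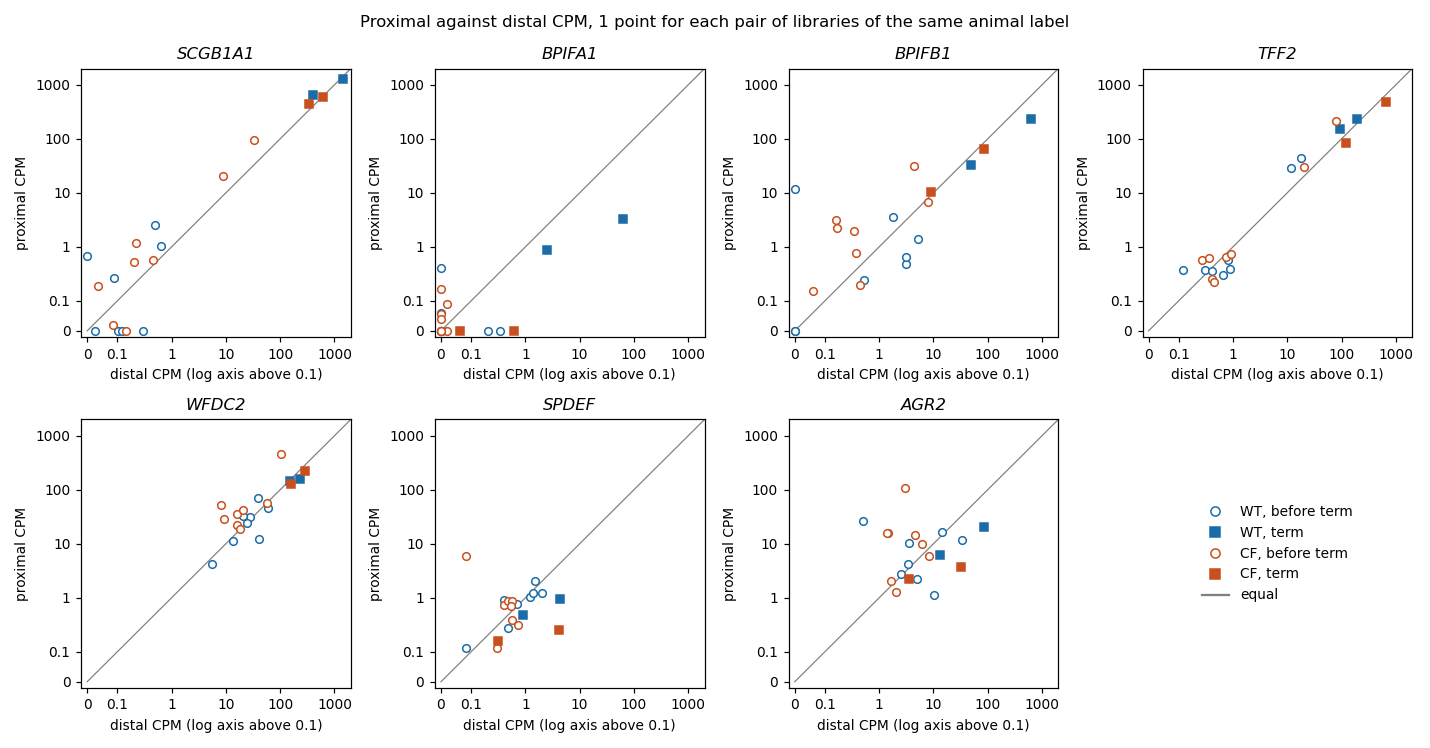
Proximal against distal CPM (log axes above 0.1) of each gene, 1 point for each pair of libraries of the same animal label (blue WT, orange CF; filled squares term, open circles before term), with the line of equal level. Each gene has points on both sides of the line, and the 4 term points of BPIFA1, WFDC2, SPDEF and AGR2 all lie on the distal side.

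The spread between replicates was shared by several of the genes. The 2 libraries of a condition were compared for which held more of a gene and more of the 12 ciliated cell genes, as a description over the 20 conditions. AGR2 was higher in the library with the higher ciliated sum in 18 of 20 conditions, BPIFB1 in 16, SPDEF and WFDC2 in 13 each, SCGB1A1 in 11 of the 19 that could be compared, BPIFA1 in 9 of 11 and TFF2 in 7 of 20. Other lists did so as often: AGR2 was higher with the secretory product sum in 19 of 20 conditions, the epithelial sum in 17 and the basal sum in 16, and BPIFB1 with the secretory product and gastrointestinal sums in 17 each and the basal sum in 16. AGR2 and BPIFB1 were higher in the same library in 18 of 20 conditions. The 2 libraries of a condition share their day, region and genotype, and they are separate pieces of tissue from animals with different labels, except at day 100 in WT, where the label is the same.
AGR2 in WT distal lung at day 65 had 33.1 and 3.46 CPM and the ciliated sum was 427 and 75.7 CPM. At term AGR2 in WT distal lung had 13.2 and 86.8 CPM, with ciliated sums of 514 and 956 CPM and basal sums of 18.9 and 99.0 CPM. In CF distal lung at term it had 3.57 and 32.2 CPM, with ciliated sums of 383 and 794 CPM and basal sums of 9.89 and 310 CPM. The share of airway in the sampled piece was not measured, and its part in the AGR2, SPDEF and BPIFB1 levels was not tested.

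**Figure D5:**
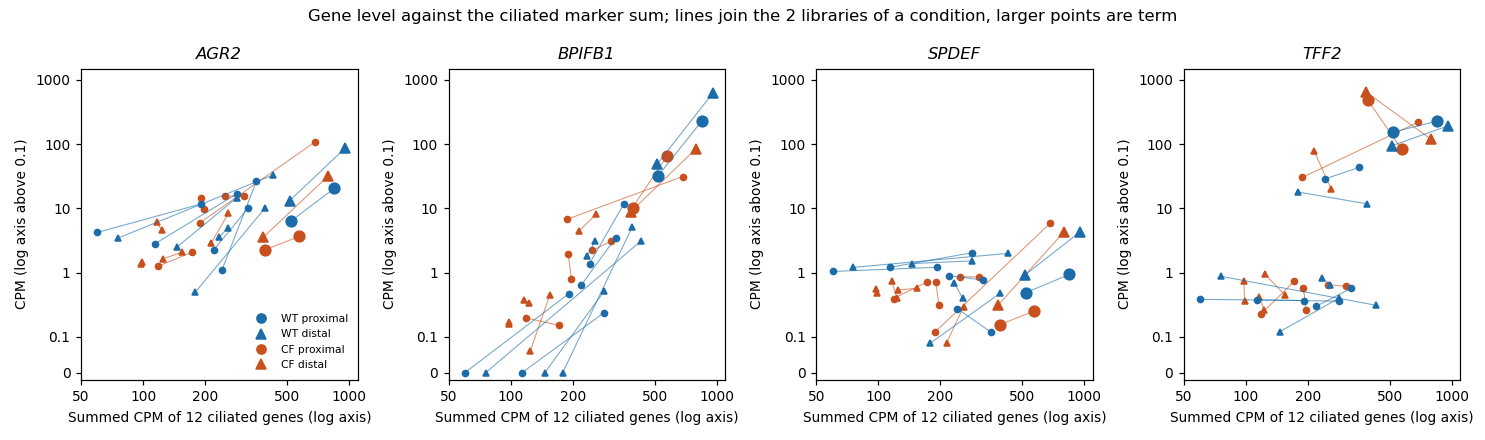
CPM of AGR2, BPIFB1, SPDEF and TFF2 (log axis above 0.1) against the summed CPM of 12 ciliated cell genes (log axis), 1 point per library, lines joining the 2 libraries of a condition and larger points for term (blue WT, orange CF; circles proximal, triangles distal). Most lines rise to the right for AGR2 (18 of 20 conditions) and BPIFB1 (16 of 20), and 7 of 20 do for TFF2.

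Over the 40 libraries, the genes whose log2 CPM followed each member most closely were named by Pearson's r, as a description of libraries that share day, genotype and animal. For SCGB1A1 they were SQRDL (0.95), TAP1, LGMN, PDLIM1 and MVP (0.93). For TFF2 they were CCRL2 (0.97), HIGD1B, NAPSA, ABHD3 and HSD17B13 (0.95), and for WFDC2 LOC105603284 (0.96), SMIM5, S100A2, PDZK1IP1 and LOC101106541 (0.93).
For BPIFB1 they were MORN3 (0.91), LOC101111922, CCDC89, LOC101112687 and DCDC2B (0.90), and for AGR2 LOC101108654 (0.89), IQCA1, WDR93, FBXO15 and TSPAN19 (0.85). BPIFA1 (LPIN2, 0.79) and SPDEF (LOC101122944, 0.78) had no gene above 0.80. Among the members, SCGB1A1, TFF2 and WFDC2 had pairwise r from 0.86 to 0.87, AGR2 had 0.63 with BPIFB1 and 0.60 with SPDEF, and SPDEF had -0.01 with SCGB1A1 and -0.18 with TFF2.

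Other genes of the secretory programme were taken from lists of products, mucins, regulators and folding partners. Of 44 other secretory products, 34 were in the files. At term against day 65, 17 of 25 tested rose and 2 fell in WT proximal lung (median log2 change 4.15, all genes 0.02), 15 of 23 rose and 1 fell in WT distal lung (3.58 against 0.00), 5 of 26 rose in CF proximal lung (1.605 against -0.08) and 16 of 25 rose and 1 fell in CF distal lung (2.14 against -0.01). The backgrounds are those given above for the same comparisons.
PIGR, the polymeric immunoglobulin receptor that carries IgA across the epithelium, went from 0.105 and 0.494 CPM at day 65 to 177 and 1010 CPM at term in WT proximal lung, and from 0.203 and 0.0923 to 67.1 and 261 CPM in CF proximal lung. SCGB3A2, a second secretoglobin, reached 506 and 3503 CPM in WT distal and 413 and 2614 CPM in CF distal lung at term, against 249 and 202 CPM in WT proximal and 196 and 328 CPM in CF proximal lung. LYZ, the antibacterial enzyme lysozyme, had 25.3 and 144 CPM in WT and 2.40 and 8.97 CPM in CF proximal lung at term, a difference of -3.89 (SE 0.75, edgeR adjusted p = 0.00864) and the only 1 of 26 products called between the genotypes there (6.09% of all genes). LYZ is also made by macrophages, whose marker sum in the same libraries was 480 and 784 CPM in WT and 90.0 and 152 CPM in CF. Of the 5 macrophage and leukocyte markers 4 were lower in CF there (MARCO, MRC1, CD68 and CSF1R), and their part in the LYZ difference was not tested. Before term LYZ was higher in CF distal lung, by 2.85 at day 80 (SE 0.72, edgeR adjusted p = 0.0324) and by 1.30 in the mean over days 65 to 120 (SE 0.33, adjusted p = 0.00804). In that mean 2 of 26 products were higher (LYZ and WFDC1) and 6 lower in CF distal lung, where 32.3% of all genes were called. The 6 were SCGB3A2 (-2.17, SE 0.72, edgeR adjusted p = 0.0327), CLCA1 (-1.79), TFF3 (-1.30), CLDN10 (-1.03), WFDC3 (-0.73) and ALDH1A1 (-0.70). For CF proximal lung 4 were higher and 2 lower in the mean over the same days (20.6%). At term in distal lung 4 of 26 products were lower in CF, a share close to the 15.2% of all genes called, among them SLPI, the leukocyte protease inhibitor, with a log2 difference of -3.29 (SE 0.81, adjusted p = 0.0148; 3.78 and 9.46 CPM in WT, 0.570 and 0.758 CPM in CF).
Of 16 mucins, 13 were in the files, and the model matched to MUC5AC (LOC101105731) had 0 to 300 reads in a library. MUC1, the membrane mucin, rose from day 65 to term in all 4 courses, by 3.89 in WT proximal, 3.27 in WT distal, 3.28 in CF proximal and 3.85 in CF distal lung, and it was at 81.0 to 218 CPM at term. Of 9 mucins tested in WT proximal lung 2 rose (MUC1 and MUC15) and 2 fell (the MUC5AC model and MUC6), where 45.1% of all genes were called. For WT distal lung 2 of 9 rose and none fell (42.8% of all genes), and in CF lung 1 of 11 rose and 1 fell in each region (11.6% in proximal, 31.1% in distal lung). The medians were 1.74, 0.99, -0.42 and 1.57, against 0.02, 0.00, -0.08 and -0.01 over all genes. Between the genotypes at term none of 11 mucins was called in proximal lung (6.09% of all genes) and 1 of 11 in distal lung (15.2%), the MUC5AC model with no read in either CF library against 82 and 18 in WT (edgeR adjusted p = 0.048). Before term MUC6, a gel-forming mucin, was the only mucin of 11 tested that was called between the genotypes in distal lung. It was higher in CF at days 65 (log2 difference 2.53, 5.23% of all genes called) and 100 (2.83, 5.3%). The same held in the mean over days 65 to 120 (2.43, 32.3%). In proximal lung MUC6 (1.98), MUC20 (1.03) and MUC1 (0.62) of 11 were higher in CF in that mean, where 20.6% of all genes were called.
Of 28 regulators of secretory cells, 27 were in the files. At term against day 65, 10 of 26 rose and 3 fell in WT proximal, 11 of 26 rose and 3 fell in WT distal, none rose and 1 of 27 fell in CF proximal and 7 rose and 4 of 27 fell in CF distal lung, with medians of 0.47, 0.58, 0.11 and 0.42. The shares of all genes called in these comparisons were 45.1%, 42.8%, 11.6% and 31.1%, against 13 of 26, 14 of 26, 1 of 27 and 11 of 27 regulators in either direction. SOX9, a transcription factor of the branching lung tips, fell in all 4 courses (log2 values of -3.19, -3.17, -3.46 and -3.19 in WT proximal, WT distal, CF proximal and CF distal lung). Between the genotypes at term, 1 of 27 regulators was called in proximal lung (6.09% of all genes) and 4 of 27 in distal lung (15.2% of all genes), shares near or below the background. HES1 (log2 difference 1.33) and NOTCH1 (0.63), a Notch target and a Notch receptor, were higher in CF distal lung, and FOXA3 (-2.10), a forkhead factor of goblet cells, was lower. XBP1, the transcription factor of the unfolded protein response in secretory cells, was called in both regions, lower in CF with log2 differences of -0.99 in proximal lung (SE 0.22, edgeR adjusted p = 0.0192) and -1.19 in distal lung (SE 0.18, adjusted p = 0.000944). In the mean over days 65 to 120, 6 of 27 regulators were higher and none lower in CF proximal lung (20.6% of all genes), and 7 were higher and 3 lower in CF distal lung (32.3%), NOTCH1 being higher in both. The levels of XBP1 in proximal lung at term were 150 and 118 CPM in CF and 287 and 246 CPM in WT.
Of 19 endoplasmic reticulum proteins that work in the same compartment as AGR2, 18 were in the files and tested. In distal lung at term 7 of 18 were lower in CF and none higher, where 15.2% of all genes were called in either direction, with a median of -0.66 (all genes 0.00), led by SDF2L1 (log2 value -1.71, SE 0.35, edgeR adjusted p = 0.00542; 24.6 and 23.2 CPM in WT, 8.51 and 5.80 CPM in CF). In proximal lung at term none of the 18 was called, against 6.09% of all genes (median -0.44). Of the 7, HYOU1 and TXNDC5 had the opposite sign before term: HYOU1, a chaperone, was higher in CF distal lung at day 120 by 1.13 (SE 0.26, adjusted p = 0.0239) and in the mean over days 65 to 120 by 0.49 (adjusted p = 0.00943), and TXNDC5, a disulphide isomerase, in that mean by 0.39 (adjusted p = 0.0161). In the distal mean 2 of 18 were higher and 3 lower (32.3% of all genes), and in the proximal mean 1 was higher (20.6%). Sums of other markers were also lower in CF distal lung at term: 1545 to 3095 CPM against 5149 to 5324 CPM in WT for alveolar type 1, 113 to 170 against 381 to 801 CPM for macrophages and leukocytes, and 226 to 359 against 712 to 763 CPM for smooth muscle. Their part in the differences of these proteins, of XBP1 and of SLPI was not tested.
AGR3, the paralogue of AGR2, fell from day 65 to term in every course, from 10.6 and 7.85 to 0.0361 and 0.316 CPM in WT distal lung and from 3.99 and 4.64 CPM to 0 in CF proximal lung, while edgeR did not call AGR2 in any of them with all libraries.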

How the data were processed

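RNA was extracted from frozen lung tissue, and oligo dT primed libraries were sequenced as 100 bp paired ends. The authors aligned reads to Oar_v4.0 with STAR (its version differs between the study's methods and the submitters' processing notes) and deposited unnormalised read counts per gene from featureCounts 1.6.3. The annotation release, strand setting and handling of mates are not given in the sources used here. Between 69.2% and 85.8% of gene counts from 1 to 20 were even in each library, so most pairs entered as 2 reads, and counting intervals and floors, which cover counting error only, are too narrow.

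From these counts, CPM were computed over the 40 libraries with TMM factors (0.751 to 1.19). Tests used edgeR 4.0.16 (glmQLFit and glmQLFTest, filterByExpr with a minimum count of 10 and total of 15, Benjamini-Hochberg over all genes tested) in R 4.3.3. Time points were fitted within each course of 10 libraries, genotypes within each region and regions within each genotype (20 libraries each), 52 comparisons in all. The study's limits (adjusted p of 0.001, log2 change of 0.58) were an alternative, applied to the fits made here. In its own edgeR analysis with these limits, the paper reports SCGB1A1 among the genes most raised in CF against WT proximal lung at day 120. It also names SCGB1A1 and BPIFB1 as raised from day 100 to day 120 in CF proximal lung. Calls lost here under these limits are thus not calls that the paper lacks. The p-values measure the spread between the 2 libraries of a condition, and a library left alone in its condition is assumed to vary like the others. Other alternatives were RLE factors, DESeq2 1.42.0, no filter, a single fit over 40 libraries, thinning to 24670355 reads, a replicate block, WT day 100 libraries summed and each library left out, and, chosen after seeing the data, edgeR's bias-adjusted fit.

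The 7 genes and all lists were chosen with earlier results of these data known. All 7 were named in every comparison. Likeness used genes with an average log2 CPM of at least 0 (prior count 2). Of 188 list entries 168 were found, 12 of them as LOC models matched through the RefSeq gene table of assembly ARS-UI_Ramb_v3.0, which was used for names only. Of each list, up to 4 called genes with the largest log2 change were to be named. SCGB3A2 is on the product and the regulator list, and the list genes described in full were chosen after their values were seen.

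The deviations of same-animal proximal and distal libraries had r from -0.09 to 0.63 over 10 pairs, above 0.1 in 6; the pairing comes from the animal labels. Numbers shared between genotypes (r from -0.09 to 0.24) or consecutive days (-0.40 to 0.62) paired nothing. No replicate pair agreed within sampling noise (lowest chi-square per degree of freedom 6.98). Day 50 was not analysed here, and a deposited table with 20 columns of CF counts that the files used also hold was not used.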

Additional observations from a re-analysis of the deposited data

Results flagged for a closer look

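The change of SCGB1A1 from day 120 to term differed between CF and WT distal lung by -6.72 on the log2 scale (CF minus WT, edgeR interaction, adjusted p = 0.00447), and the test of that difference is what drew attention to it. CF distal lung went from 8.73 and 33.6 CPM to 605 and 340 CPM, and WT distal lung from 0.496 and 0.300 CPM to 396 and 1415 CPM. Before term the CF libraries were sequenced more deeply, and the WT day 120 values rest on 12 reads in each library.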

How the results depend on the processing

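No called change of the 7 genes reversed under any setting tried, and 19 of the 39 calls held under every setting other than the study's limits and without each library in turn. Between consecutive time points 17 gene and comparison pairs were called, against 27 with DESeq2, 4 with the study's limits and 12 to 25 without a library in turn. For term against day 65 the 17 calls became 8 with the study's limits and 15 to 20 without a library. For CF against WT the 4 calls became 6 with DESeq2 (without BPIFA1, and with SPDEF and WFDC2 at day 120 in proximal lung and SCGB1A1 in the distal mean over days 65 to 120 added), 2 with the WT day 100 libraries summed, 0 with the study's limits and 2 to 8 without a library. For proximal against distal lung no pair was called, against 2 with DESeq2 (BPIFB1 and AGR2 in CF at day 80), 1 with the replicate block (TFF2 in WT at day 120) and 0 to 4 without a library. For the genotype difference in change the single call became 2 with DESeq2, 2 with the bias-adjusted fit, 3 in a fit over 40 libraries, 2 after thinning, 0 with the study's limits and 1 to 8 without a library. All 5 highest counts but that of term against day 65 came without CF proximal day 120 replicate 1, and the causes were not tested. RLE factors changed no call. With the replicate block 17 consecutive calls became 15, 17 term against day 65 calls 16 and 4 genotype calls 3, where numbers shared across days or genotypes only name a sample. With 2 libraries per condition, 2-fold differences in AGR2 or BPIFB1 are below the median ratio between replicates (3.05 and 4.62), and BPIFA1 and early SCGB1A1 are near the limit set by 3 reads.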
